A study of Mus musculus with 15 samples.

Results

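A total of 2302 intergenic regions carried a called H3K27ac region in both WT libraries and in neither H3.3cKO library of bone marrow-derived macrophages (BMDMs), out of 89773 regions obtained by merging the 4 H3K27ac lists. The regions were selected on their presence in these 4 H3K27ac lists, so that presence is a description and not a finding. To be counted, a merged region on chromosomes 1 to 19 or X had to be overlapped by at least 1 bp in WT 1 and WT 2 and by no base in cKO 1 or cKO 2, and its midpoint had to lie outside every protein-coding gene body and more than 1 kb from any protein-coding start site (GENCODE M21, mm10). These regions are called lost below, and each was assigned to the protein-coding gene with the nearest start site, which does not establish that the gene is its target. The same 4 lists gave 3404 intergenic regions present in all 4 libraries (kept), 837 present in both cKO and neither WT library (gained), and 9054 lost regions within introns.

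BMDMs were cultured for 6 to 8 days in L929-conditioned medium from C57BL/6-background mice of 8 to 10 weeks. WT cells were H3f3a fl/fl and H3f3b fl/fl without Cre. The cKO cells carried the same floxed alleles together with LysM cre/cre, in which Cre is made from the myeloid Lyz2 locus. The study describes the deletion of H3f3b as partial in some preparations. H3.3-HA libraries came from mice in which H3f3b carries an HA tag, not from the floxed line. CUT & RUN, in which an antibody-tethered nuclease releases the DNA bound by the protein of interest, was performed in 2 libraries per group for H3K27ac and H3K36me3 in WT and cKO cells and for HA in H3.3-HA cells. The labels call the H3K27ac and H3K36me3 libraries biological replicates without naming the animals, so the p-values below measure the spread between libraries. The H3.3-HA libraries are only numbered in the labels.

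Acetylation of histone H3 at lysine 27 is placed by the co-activators p300 and CBP and marks active promoters and enhancers. In macrophages, most enhancers lie away from start sites and are bound by the lineage factor PU.1 together with AP-1, C/EBP and other factors. H3.3 is the histone H3 variant that is put into chromatin outside DNA replication, at active genes and enhancers, and H3K36me3 follows transcription along gene bodies.

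Sequences of the lost regions are shown first, as read from the RefSeq mouse genome GRCm38.p6, whose chromosome coordinates are those of mm10. The letters of 3 motifs were searched on both strands: GAGGAAGT (PU.1), TGACTCA (AP-1) and TTGCNNAA (C/EBP). Capitals mark these matches. The first 2 sequences are the central 300 bp of the widest lost region and of the widest lost region nearest to Klf4, a macrophage transcription factor gene.

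Widest region, nearest gene Tpp2, chr1:43913375-43913674, plus strand: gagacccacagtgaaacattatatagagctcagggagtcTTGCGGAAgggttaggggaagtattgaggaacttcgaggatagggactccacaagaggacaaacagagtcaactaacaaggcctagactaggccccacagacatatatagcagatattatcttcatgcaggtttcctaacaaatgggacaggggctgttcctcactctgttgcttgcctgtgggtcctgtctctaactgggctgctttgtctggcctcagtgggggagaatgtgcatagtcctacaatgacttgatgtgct
Region nearest Klf4, chr4:55741272-55741571, plus strand: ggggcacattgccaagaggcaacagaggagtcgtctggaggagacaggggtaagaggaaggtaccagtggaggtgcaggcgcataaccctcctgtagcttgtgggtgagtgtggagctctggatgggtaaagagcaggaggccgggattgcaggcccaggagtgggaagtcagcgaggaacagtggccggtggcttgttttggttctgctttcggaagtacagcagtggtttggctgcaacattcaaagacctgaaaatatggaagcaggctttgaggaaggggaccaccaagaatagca

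The widest region held a C/EBP match in this window, and the window near Klf4 held none of the 3 motifs. Only 4 of the 2302 lost regions (0.174%) held all 3 motifs in their central 500 bp, against 10 kept intergenic regions (0.294%). In 3 of them the matches fitted within 300 bp, and these windows, chosen after their motifs had been seen, are shown because each carries the motifs of all 3 macrophage factors. In the region nearest Lmo2 the PU.1 and AP-1 matches shared a base.

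Region 163 kb upstream of Rnd3, chr2:51312106-51312405, plus strand: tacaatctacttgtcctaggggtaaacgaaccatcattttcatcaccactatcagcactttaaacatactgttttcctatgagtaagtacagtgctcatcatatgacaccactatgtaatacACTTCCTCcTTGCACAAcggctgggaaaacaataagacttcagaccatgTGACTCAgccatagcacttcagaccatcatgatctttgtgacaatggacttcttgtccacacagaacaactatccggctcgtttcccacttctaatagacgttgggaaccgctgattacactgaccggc
Region 61.6 kb upstream of Lmo2, chr2:103896245-103896544, plus strand: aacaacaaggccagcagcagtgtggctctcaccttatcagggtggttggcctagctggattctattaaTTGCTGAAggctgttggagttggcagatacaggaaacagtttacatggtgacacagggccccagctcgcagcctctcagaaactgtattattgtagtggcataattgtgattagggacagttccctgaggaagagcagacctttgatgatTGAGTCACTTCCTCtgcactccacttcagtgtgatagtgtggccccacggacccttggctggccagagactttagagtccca
Region 44.8 kb upstream of Psma1, chr7:114320697-114320996, plus strand: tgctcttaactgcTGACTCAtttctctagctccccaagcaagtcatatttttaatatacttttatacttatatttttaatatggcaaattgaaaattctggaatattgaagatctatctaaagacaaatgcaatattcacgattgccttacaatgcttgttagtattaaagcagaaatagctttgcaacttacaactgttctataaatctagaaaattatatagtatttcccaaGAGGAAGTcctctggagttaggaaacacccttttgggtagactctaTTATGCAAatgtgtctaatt

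The depth and the lengths of the lists bear on how many regions can be called lost. The H3K27ac libraries held 16444864 to 29988098 tags, and both cKO libraries were deeper than WT 2. Called regions held 24.1% and 21.5% of the tags in the WT libraries and 11.8% and 17.8% in the cKO libraries, and the lists had 61764 and 54630 regions in WT against 35018 and 41443 in cKO. The H3K36me3 library cKO 1 stood apart, with 19.3% of its tags in regions, against 46.5% to 50.2% in the other 3 libraries, and it covered 90.6 Mb against 163 to 170 Mb. Of 10 macrophage markers, 7 or 8 had an H3K27ac region at the start site in every H3K27ac library. Of 8 neutrophil markers, 1 had a region in WT 1, WT 2 and cKO 1 and 4 had one in cKO 2, while S100a8, S100a9, Ly6g and Mpo had none in any library. The dendritic cell markers numbered 1 in WT 1 and 2 in each other library of 5, and the B cell list had 1 of 4 in each library. The T cell and stromal lists had no such region, and 1 of 3 erythroid markers had one in cKO 2 alone. The part of these differences in the lost regions was not tested. Region lists hold no RNA, so deletion of H3f3a and H3f3b could not be checked in them.

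Among all merged regions, 12771 were lost (14.2%), and among intergenic merged regions the share was 13.5%. Of the regions called in both WT libraries, 36.3% were lost over all places, 32.6% of the 7069 intergenic ones, 42.8% of intronic ones and 10.9% of those at promoters. Intergenic regions made up 18.03% of the lost, 22.1% of the kept and 27.9% of the gained regions. Another 1363 of the 7069 intergenic regions in both WT libraries (19.3%) had a region in 1 cKO library only and are not counted as lost. The number of lost regions depended on the lengths of the lists. With each H3K27ac list reduced to its 35018 widest regions, 1220 intergenic regions were lost, 1106 of the 2302 (48.0%) were found again, and 1207 were gained. The ratio of lost to gained intergenic regions was thus 2.75 with the full lists and 1.01 with equal lists. The study's own read-based differential binding, over all places, reported more peaks with increased than with reduced H3K27ac in cKO cells. Presence in a list and read counts are unlike measures, so the counts here are not a net loss of signal.

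The lost regions were narrow. Their median width was 941 bp (quartiles 728 and 1316 bp, range 502 to 5810 bp), against 2511 bp for kept, 877 bp for gained and 1017.5 bp for lost intronic regions. A width under 1 kb was found in 55.4% of lost and 3.88% of kept intergenic regions. WT 1 covered 2239 kb (87.6%) and WT 2 covered 2008 kb (78.5%) of the 2557 kb that the lost regions span. In 314 lost regions (13.6%), both WT libraries had a region of only 501 bp, the narrowest that the lists hold. A kept region merges the calls of 4 libraries and a lost one those of 2 libraries, so the rule itself favours wider kept regions.

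The lost regions lay somewhat farther from start sites than kept or gained intergenic regions, and 20.0% of lost and 22.1% of kept regions lay within 10 kb of one. The median distance to the nearest start site was 35935.5 bp (quartiles 12710 and 101554 bp), compared with 29979 bp for kept and 23751 bp for gained intergenic regions. A distance over 100 kb was found for 25.2% of lost, 18.9% of kept and 16.2% of gained intergenic regions. Over 300 kb, the share was 6.95% (95% Wilson interval 5.98 to 8.06) of lost and 3.73% (3.14 to 4.42) of kept regions. Of the lost regions, 62.6% lay upstream of the nearest start site, against 68.6% of the kept. Non-coding genes covered the midpoint of some lost regions, with a lincRNA at 231 (10.0%) and an antisense gene at 49 (2.13%), against 12.02% and 2.47% of kept regions. These intervals and those that follow cover counting error only.

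**Figure D1:**
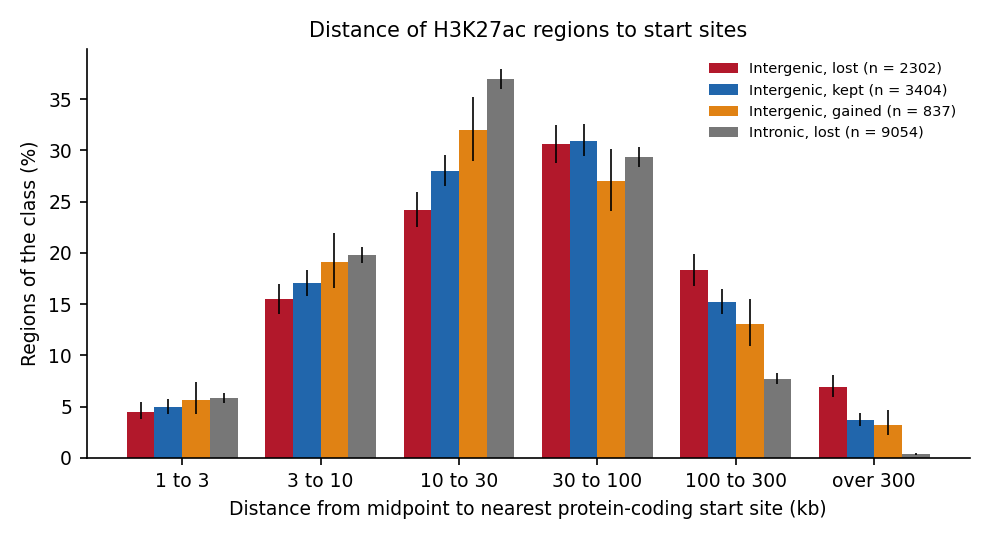
Distance from the midpoint of each H3K27ac region to the nearest protein-coding start site (x axis, kb, in unequal bins) against the share of the regions in each class (y axis, %), with 95% Wilson intervals as error bars. Lost intergenic regions are 6.95% of their class beyond 300 kb, against 3.73% of kept intergenic and 0.353% of lost intronic regions.

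Regions still called in cKO cells were often close. The gap from a lost region to the nearest region of either cKO library had a median of 7437.5 bp, and 268 lost regions (11.6%) had one within 1 kb. A kept region lay within 10 kb of 826 lost regions (35.9%), and another lost region lay within 10 kb of 370 (16.1%). At the edges of the rule, the smallest gaps to a cKO region were 2, 10 and 10 bp, and the regions just outside it had at least 501 bp covered by a cKO region. The lost regions nearest to a start site lay 1002 bp from Zfp395, 1007 bp from Gm33543 and 1025 bp from Siglecf, and regions just too near lay 995 bp from Tcf7l2 and 958 bp from Upf3a.

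The 12 widest lost regions spanned 3689 to 5810 bp. The widest, chr1:43910620-43916429, lay 20.5 kb upstream of Tpp2, which encodes a peptidase. WT 1 covered 5728 bp and WT 2 covered 5201 bp of it, the H3.3-HA libraries covered 4161 and 3783 bp, and no H3K36me3 library had a region there. A cKO H3K27ac region lay 151 bp away from it.

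Among the 12 widest regions, chr19:5825043-5829406 (nearest coding start site Frmd8) lay inside Neat1, the non-coding RNA gene that forms the core of paraspeckles. It spanned 4364 bp and was covered over 4364 bp in WT 1 and 1974 bp in WT 2. H3.3-HA covered 2759 and 4364 bp of it. Over this region H3K36me3 covered 3515 and 3755 bp in the WT libraries, 0 bp in cKO 1 and 4364 bp in cKO 2, so that the 2 cKO libraries lay on either side of the WT libraries.

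A further lost region at a non-coding gene, chr15:62042093-62046734, lay in Pvt1, 57.0 kb downstream of the start site of the proto-oncogene Myc. WT 1 covered 4642 bp and WT 2 4537 bp of it, and H3.3-HA covered 1908 and 2090 bp. The region near Cep83, 3889 bp wide, lay in the lincRNA gene Gm48657. Others among the 12 widest were nearest to Tex13c3, Dhrs3, Tusc1, Qk, Ccdc125 and Sgo1. Of the 12, 10 were overlapped by regions of both H3.3-HA libraries, and those near Tusc1 and Sgo1 by H3.3-HA 1 alone.

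**Figure D2:**
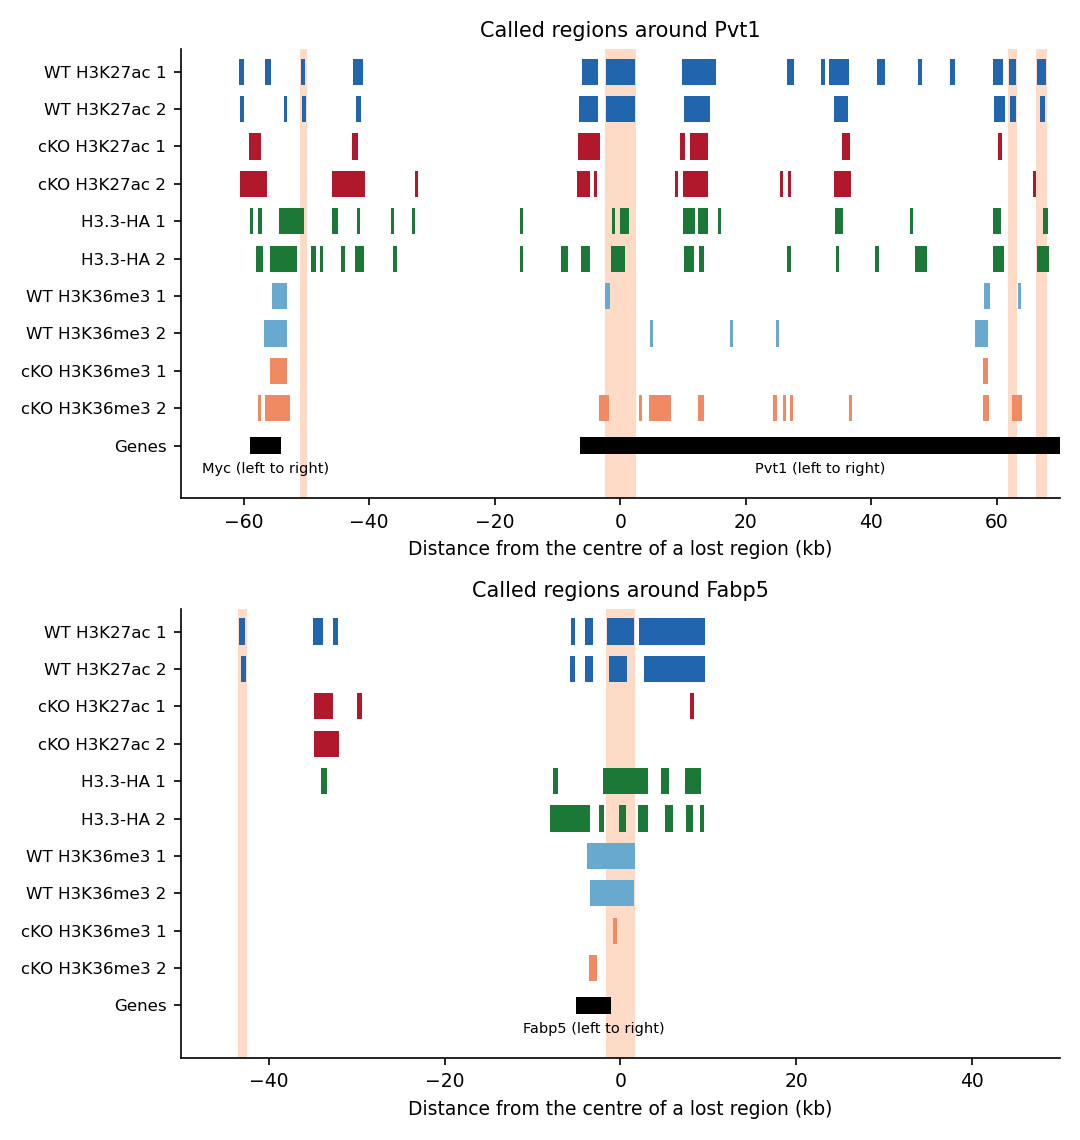
Called regions of the 10 libraries around Pvt1 and Fabp5, with distance from the centre of a lost region in kb on the x axis and 1 row per library. Shading marks lost regions, black bars mark genes and their reading direction. In the shaded spans both WT H3K27ac libraries have regions and both cKO libraries have none, and in Pvt1 a cKO region lies 954 bp from the widest lost region.

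H3.3-HA was not used to choose the regions and was measured in tagged, not floxed, mice. Of the lost regions, 58.6% (95% Wilson interval 56.6 to 60.6) were overlapped by H3.3-HA 1 and 46.7% (44.6 to 48.7) by H3.3-HA 2. Both H3.3-HA libraries overlapped 891 (38.7%) and neither overlapped 770 (33.4%). Kept intergenic regions were overlapped more often, at 81.1% and 73.9%, and gained intergenic and lost intronic regions less often, at 45.3% and 40.5% and at 36.5% and 29.95%.

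The shares rose with width in each class, and lost and kept regions of like width were closer to each other. Among regions of 1 to 2 kb, 68.0% and 55.3% of lost and 68.2% and 57.3% of kept regions were overlapped by H3.3-HA 1 and 2, and the intervals of lost and kept regions overlapped. Under 1 kb the shares were 49.6% and 37.9% of lost and 53.8% and 42.4% of kept regions, again with overlapping intervals. At 2 kb or more, lost regions were overlapped less often, at 78.9% (72.2 to 84.3) and 68.6% (61.4 to 74.99), against 89.1% (87.8 to 90.4) and 83.9% (82.3 to 85.4) of kept regions. This class has no upper limit, and kept regions reached 27637 bp against 5810 bp for lost ones. Widths were thus not matched within it, and the part of width in this difference was not tested. Lost intronic regions had lower shares than lost intergenic ones in each width class and both libraries, such as 41.5% and 34.5% at 1 to 2 kb.

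**Figure D3:**
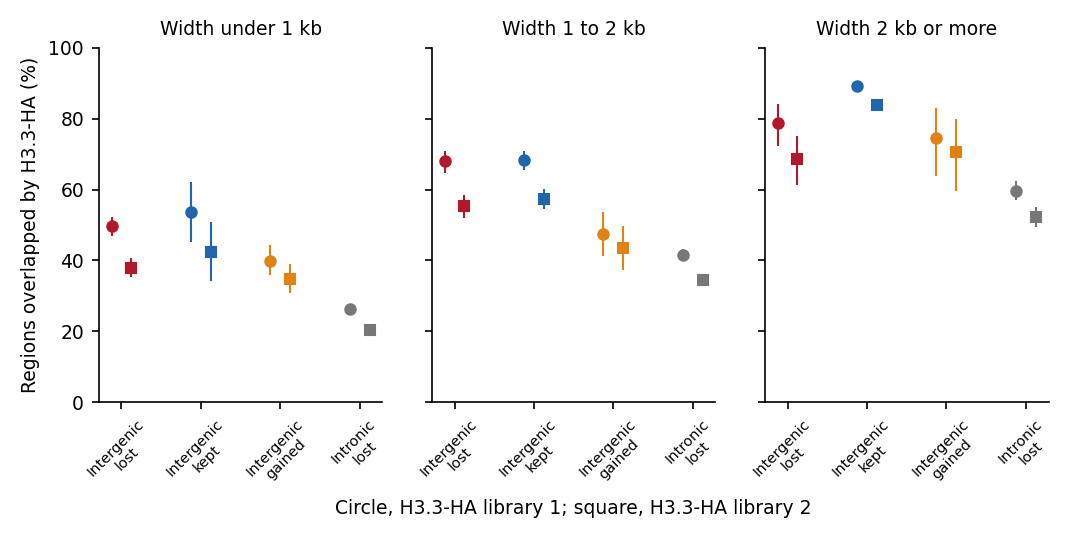
Share of H3K27ac regions overlapped by H3.3-HA (y axis, %) by class (x axis) and width, with circles for H3.3-HA library 1, squares for library 2 and bars for 95% Wilson intervals. Lost and kept intergenic regions lie at 68.0% and 68.2% in library 1 at widths of 1 to 2 kb, and lost intronic regions lie below lost intergenic ones in each panel.

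The overlap with H3.3-HA also varied with the distance from start sites. It was 71.5% and 65.4% for lost regions within 10 kb of a start site, 59.9% and 49.5% at 10 to 50 kb, and 51.2% and 35.0% beyond 50 kb. In kept regions it was 84.4% and 81.2% within 10 kb, 80.9% and 76.1% at 10 to 50 kb, and 79.3% and 66.6% beyond 50 kb. Lost and kept regions were not matched for width in these distance classes. Lost regions with both H3.3-HA libraries had a median width of 1092 bp, a GC content of 45.2% and a distance of 23208 bp, against 816.5 bp, 42.8% and 54618 bp for those with neither. The longest spans covered in both H3.3-HA libraries included those in the lost regions nearest Tpp2, Tex13c3, Dhrs3 and Ankrd13d. The region near Ankrd13d (chr19:4283678-4286500), 1.95 kb upstream of its start site, was covered over its whole 2823 bp in both libraries. H3K27ac covered 2823 bp of it in WT 1 and 1313 bp in WT 2, and a cKO H3K27ac region lay 12 bp away.

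The central 500 bp of the lost regions had a median GC content of 44.0% and 4 CpG dinucleotides, against 45.2% and 5 in kept regions. Repeats filled a median of 14.8% of this window in lost and 16.2% in kept regions. A PU.1 match was found in 252 lost regions, or 10.9% (9.74 to 12.3), against 9.96% (8.998 to 11.0) of kept and 9.003% of all intergenic merged regions and 5.47% of all merged regions. AP-1 matches were found in 18.9% of lost and 19.5% of kept regions, and C/EBP matches in 23.2% and 23.5%. The intervals of lost and kept regions overlapped for each of these 3 motifs. With the shorter PU.1 core GGAAGT they did not, at 47.6% (45.6 to 49.7) of lost and 43.3% (41.6 to 44.97) of kept regions, and the share was 44.2% in gained regions. Lost intronic regions lay below kept intergenic ones, with GAGGAAGT in 5.43% and GGAAGT in 33.2% (32.2 to 34.2). A higher share of PU.1 letters was therefore not shared by lost regions of both places. Of the lost regions, 54.4% held none of the 3 motifs, against 54.9% of the kept.

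A further 10 motifs were searched on both strands. These were TGACGTCA (CRE), TGTGGTT (RUNX), TCACGTG (MITF/TFE E-box), GAAANNGAA (IRF), GGAANTGAA (PU.1:IRF), TTCNNNGAA (STAT), GGGANTTTC (NF-kB), CTATTTATA (MEF2), CAGGGGGC (CTCF core) and GGGCGG (Sp/KLF). The PU.1:IRF and IRF letters can match the same bases, as can AP-1 and PU.1 at their ends. The Sp/KLF letters were found in 6.17% (5.26 to 7.23) of lost, 9.31% (8.38 to 10.3) of kept and 10.4% (8.50 to 12.6) of gained intergenic regions, and in 8.73% of all merged regions. Lost intronic regions held these letters in 3.72%. For this motif the interval of lost intergenic regions did not overlap those of kept and gained regions, and for the other 12 motifs the lost and kept intervals overlapped. Among the 12, IRF letters were found in 21.3% of lost and 21.1% of kept regions, and STAT letters in 16.1% and 17.1%. The window of 500 bp is a larger part of a lost than of a kept region, whose median widths were 941 and 2511 bp. Lost windows were also lower in GC and CpG, as given above. The part of these differences in the Sp/KLF shares was not tested.

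**Figure D4:**
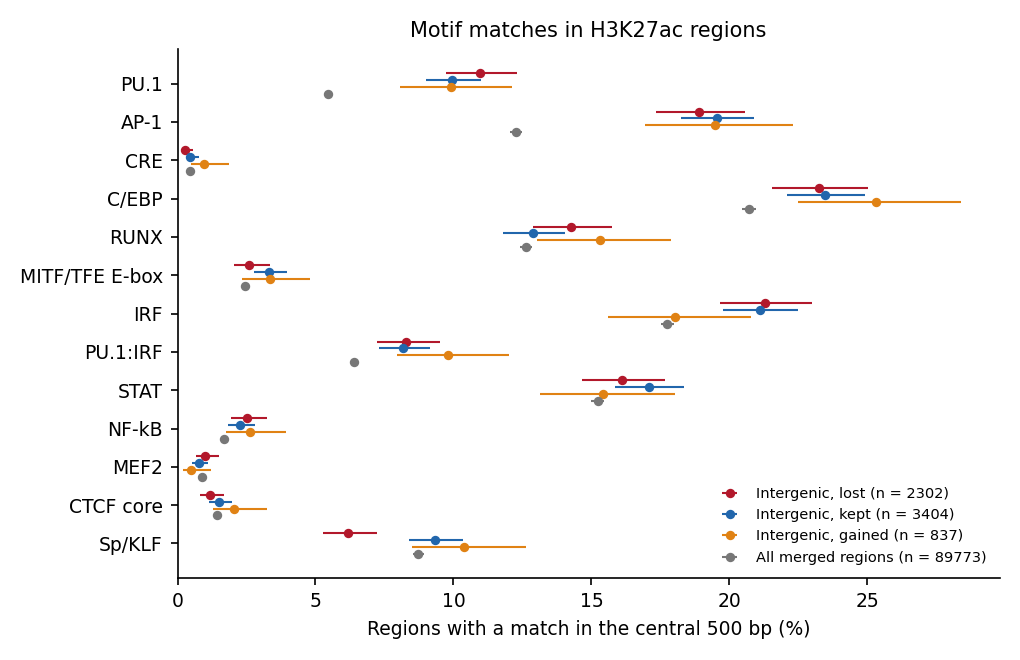
Share of regions with a motif match in the central 500 bp (x axis, %) for 13 motifs (y axis), with points for each class and bars for 95% Wilson intervals. Lost and kept intergenic regions overlap for 12 motifs and differ for Sp/KLF, at 6.17% and 9.31%.

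AP-1 letters were found in 16.2% (13.9 to 18.7) of the lost regions with both H3.3-HA libraries and in 22.5% (19.7 to 25.5) of those with neither. PU.1 letters were found in 10.8% and 10.5% and C/EBP letters in 23.5% and 21.2%, with overlapping intervals. The regions without H3.3-HA were also narrower, farther from start sites and lower in GC, as given above. The part of these differences in the AP-1 shares was not tested.

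H3K36me3 was measured in both genotypes and was not used to choose the regions. WT 1 and WT 2 overlapped 9.82% and 10.1% of the lost regions, and cKO 1 and cKO 2 overlapped 6.34% and 10.5%. The cKO values lay on either side of the WT values, and the difference of −1.56 percentage points (WT 9.97% ± 0.215, cKO 8.41% ± 2.92, SD, n = 2 each) gave p = 1 in a two-sided exact permutation test, whose smallest p for 2 against 2 is 0.333. The length of lost regions within H3K36me3 was 217 and 219 kb in WT and 114 and 217 kb in cKO, a difference of −52.3 kb (exact permutation p = 0.667). The lower value came from cKO 1, the library with few tags in regions, and without it the differences were 0.4996 points and −0.917 kb.

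Relative to kept regions, the order of the genotypes differed. Kept intergenic regions were overlapped by H3K36me3 at 6.55% and 7.52% in WT and 7.31% and 13.1% in cKO. The share of lost minus that of kept regions was 3.27 and 2.60 points in WT 1 and WT 2 and −0.973 and −2.66 points in cKO 1 and cKO 2. The groups did not overlap, and the difference of −4.75 points reached the smallest p that 4 libraries allow (exact permutation p = 0.333), which is not below 0.05. H3K36me3 was called at 25 lost regions (1.09%) in both WT and neither cKO library, against a background of 1.11% of intergenic merged regions and 0.176% of kept ones. The opposite pattern was found at 11 lost regions (0.478%), against a background of 0.759% and 1.47% of kept ones. At 1993 lost regions (86.6%), no H3K36me3 library had a region.

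The 5 widest lost regions with H3K36me3 in both WT and neither cKO library were nearest to Tfpi, Ppp1r21, Srsf7, Celf3 and Tex13c3. The region 8.22 kb downstream of the start site of Srsf7, which encodes a splicing factor, spanned 1918 bp, of which H3K36me3 covered 1101 and 937 bp in WT 1 and WT 2 and 0 bp in both cKO libraries. Of the 5 widest with the opposite pattern, 4 were nearest to Nav1, Clec2d, Nadk and Gm765. The region 2.73 kb upstream of Nadk, which encodes NAD kinase, was covered over all of its 946 bp in both cKO and neither WT library.

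The lost regions were assigned to 1600 genes, 7.35% of the 21755 protein-coding genes, of which 672 (42.0%) were also nearest to a kept intergenic region. Of these genes, 1200 had 1 lost region and 35 had 5 or more. An H3K27ac region lay at the start site of 59.9% and 59.0% of the 1600 genes in WT 1 and WT 2 and of 57.1% and 62.7% in cKO 1 and cKO 2. All 4 libraries had one at 45.4% of the genes and none had one at 29.1%. The start site was acetylated in both WT and neither cKO library at 55 of them (3.44%, 2.65 to 4.45), against 2.39% (1.71 to 3.34) of genes nearest only to kept intergenic regions and 1.66% of all protein-coding genes. No library had a start-site region at 25.8% of genes nearest only to kept regions and 52.5% of all protein-coding genes, so these sets are unlike. The same 4 lists chose the lost regions, so the start-site shares are a description.

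The mean share of the gene body covered by H3K36me3 over the 1600 genes was 32.1% and 33.6% in WT and 22.1% and 34.1% in cKO. The cKO libraries lay on either side of the WT libraries, and the difference of −4.76 points was not larger than the spread between libraries (exact permutation p = 1). It was 1.24 points without cKO 1. Over the 1379 genes nearest only to kept intergenic regions the values were 33.01% and 34.5% in WT and 23.8% and 36.6% in cKO. The difference between these gene sets was −0.905 and −0.912 points in WT and −1.72 and −2.56 points in cKO, a change of −1.23 points with groups that did not overlap (exact permutation p = 0.333, the smallest possible).

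**Figure D5:**
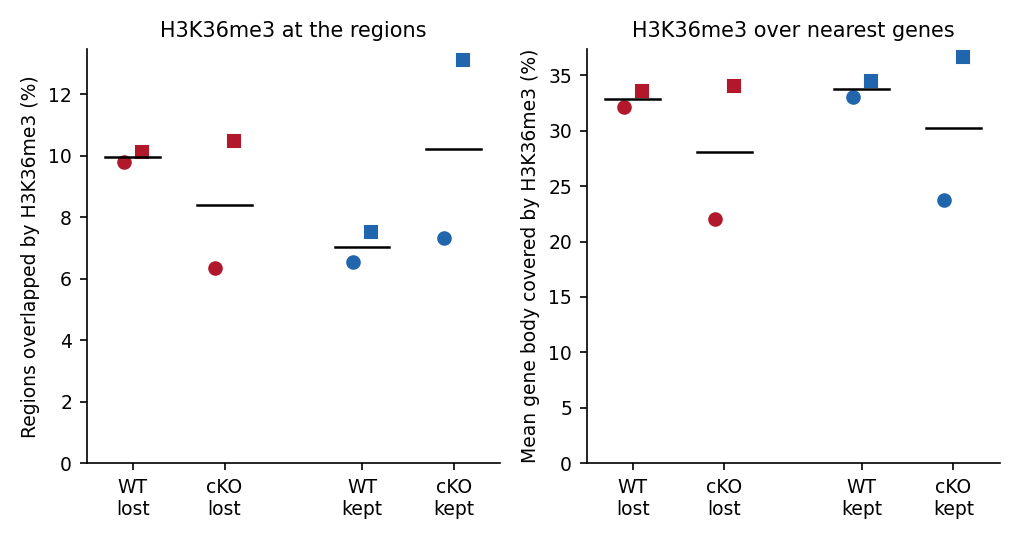
H3K36me3 in each library, with circles for library 1, squares for library 2 and black lines for the mean of 2. Left, regions overlapped (y axis, %), and right, mean share of the nearest genes' bodies covered (y axis, %), for lost regions in red and kept intergenic regions in blue. The cKO circles, from the library with few tags in regions, lie below the cKO squares in each set, at 6.34% against 10.5% for lost regions.

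Gene by gene, 1176 of the 1600 genes had some H3K36me3. Coverage was lower in both cKO than in both WT libraries at 448 of them (38.1%), close to the background of 38.4% of all genes with H3K36me3, and higher at 145 (12.3%, background 8.11%). It was lower by over 20 points at 48 genes (4.08%, background 3.14%) and higher by over 20 points at 21 (1.79%, background 1.1%). Of genes nearest only to kept intergenic regions, 34.9% were lower and 13.5% higher in both cKO libraries. By over 20 points, 2.26% of that set were lower and 2.56% higher, so higher coverage was not particular to genes nearest to lost regions.

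The gene nearest to most lost regions was Zeb2, a transcription factor that maintains macrophage identity. It had 12 lost regions, 9.03 to 1417 kb from a start site and 519 to 2338 bp wide, and 11 kept ones. H3.3-HA 1 overlapped 6 of them and H3.3-HA 2 overlapped 3 of these 6, and AP-1 letters were found in 5. The start site of Zeb2 kept H3K27ac in all 4 libraries, and H3K36me3 covered 74.98% and 78.5% of its body in WT and 78.2% and 92.7% in cKO. H3K36me3 over Zeb2 was therefore not lower in cKO, and the groups overlapped.

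Cited2, which encodes a co-regulator that binds p300 and CBP, had 11 lost and 15 kept regions. H3K27ac lay at its start site in both WT libraries and in 1 cKO library, and H3K36me3 covered none of it in WT, none in cKO 1 and 40.5% in cKO 2. Zfat, which encodes a zinc finger protein of immune cells, had 6 kept and 10 lost regions. Of the lost ones, 9 were overlapped by H3.3-HA 1 and 5 by H3.3-HA 2. H3K36me3 covered 15.1% and 15.3% of Zfat in WT and 0.941% and 1.76% in cKO, with no overlap between the groups.

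Each of Trps1, Zfp386, Klf6, Btg1, Gm11146, Nmbr and Adgrl2 had 8 lost regions, beside 3, 3, 20, 6, 3, 1 and 10 kept ones in that order. None of the 8 nearest Trps1, which encodes a repressor of the GATA family, was overlapped by H3.3-HA. The 8 nearest Zfp386 lay 135 to 1115 kb from its start site, and 4 of them had their midpoint in an immunoglobulin heavy chain variable segment. All 8 nearest Gm11146 lay in the host transcript Mir99ahg. Those nearest Nmbr, the neuromedin B receptor gene, lay 199 to 1411 kb away in a span with few cKO regions, the median gap being 247786 bp.

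Klf6 and Adgrl2 went in opposite directions for H3K36me3. Klf6, a zinc finger factor of myeloid cells, was covered over 0% and 7.12% of its body in WT and 82.7% and 83.4% in cKO. It was the nearest gene of 8 lost regions, all upstream of it, and of 20 kept ones. Adgrl2, an adhesion G protein-coupled receptor gene with no H3K27ac at its start site in any library, was covered over 18.5% and 19.9% in WT and 0.408% and 1.53% in cKO. Neither gene's groups overlapped, and no test was run for single genes.

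The gene lists below are read against the 7.35% of all protein-coding genes that were nearest to a lost region and the 9.43% nearest to a kept intergenic one. For H3K36me3 over single genes, the background is all protein-coding genes with coverage. Of these, 38.4% were lower and 8.11% higher in both cKO than in both WT libraries. Of 40 genes of macrophage identity, 17 (42.5%) were nearest to a lost region and 22 (55.0%) to a kept one. Apart from Zeb2, those with the longest lost regions were Klf4 with 7, Maf with 4 and Ets2 with 1, all of which encode transcription factors. These 3 genes had 7, 7 and 3 kept intergenic regions, in that order. The lost regions of Klf4 were 584 to 1291 bp wide, and the widest, chr4:55740777-55742067, was covered over 1166 and 1131 bp in WT and over 1229 and 1068 bp by H3.3-HA. H3K36me3 over Klf4 was 35.1% and 43.0% in WT and 2.33% and 52.6% in cKO, with overlapping groups. The widest lost region of Maf, chr8:115596619-115598730, spanned 2112 bp, of which the WT libraries covered 2032 and 2015 bp. H3K27ac lay at the start site of Maf in both WT and 1 cKO library. H3K36me3 covered 88.5% and 86.8% of Maf in WT and 64.8% and 85.0% in cKO, without overlap. The single lost region of Ets2, 3153 bp wide, lay 119 kb downstream in a lincRNA gene, 302 bp from a cKO region, and H3.3-HA covered 2154 and 3153 bp of it.

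Of 37 genes of lipid and sterol metabolism, 11 (29.7%) were nearest to a lost region, as many as to a kept one. Fabp5, which encodes a fatty acid-binding protein, had a lost region over its 3′ end (chr3:10016142-10019150), covered over 3009 bp in WT 1 and 2047 bp in WT 2, and a lost one 37.9 kb upstream. Its start site had H3K27ac in both WT and neither cKO library. H3K36me3 covered the 3′ region over 3009 bp in both WT libraries, over 501 bp in cKO 1 and not at all in cKO 2. Over the gene it covered 68.7% and 59.5% in WT and 0% and 21.5% in cKO, so that the WT values lay above both cKO values.

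Insig1, which encodes a protein that holds the sterol sensor SCAP in the endoplasmic reticulum, had 2 lost regions 1.14 and 6.25 kb upstream. Its start site kept H3K27ac in all 4 libraries, and H3K36me3 covered 85.2% and 86.4% in WT and 55.6% and 85.7% in cKO. Abca1, the cholesterol efflux transporter gene, had 3 lost regions 65.3 to 119 kb upstream, each overlapped by H3.3-HA. It had H3K27ac at its start site in 1 WT and no cKO library. H3K36me3 covered 85.5% and 85.7% of Abca1 in WT and 61.3% and 85.3% in cKO, without overlap but with cKO 2 close to WT. Mylip, which encodes a ligase that degrades the LDL receptor, had 2 lost regions. H3K36me3 covered 71.8% and 74.9% of Mylip in WT and 52.6% and 87.1% in cKO, with overlapping groups. Kept intergenic regions numbered 1 at Abca1 and 0 at Fabp5, Insig1 and Mylip.

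Of 35 adhesion and migration genes, 13 (37.1%) were nearest to a lost region and 16 to a kept one. F13a1, the coagulation factor XIII A chain gene of macrophages, had 3 lost regions upstream, 11.3 to 146 kb away, and H3K36me3 covered 41.2% and 47.2% of it in WT and 6.28% and 6.76% in cKO. Thbs1, the thrombospondin gene, also had 3, and H3K36me3 covered 86.6% and 94.7% in WT and 29.7% and 51.9% in cKO. Spp1, which encodes osteopontin, had 2, no H3K27ac at its start site in cKO against both libraries in WT, and H3K36me3 of 70.4% and 78.2% in WT and 92.4% and 100% in cKO. The groups did not overlap for these 3 genes, with F13a1 and Thbs1 lower and Spp1 higher in cKO. Itga4, an integrin gene, had 2 lost regions. Its H3K36me3 was 88.9% and 91.8% in WT and 51.5% and 83.2% in cKO, also lower without overlap. Kept intergenic regions numbered 4 at F13a1, 5 each at Thbs1 and Spp1, and 3 at Itga4.

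Of 33 genes of the cell cycle and DNA damage response, 9 (27.3%) were nearest to a lost region and 9 to a kept one. Myc had 7 lost and 13 kept regions, with 6 of the lost ones in Pvt1. H3K36me3 covered 27.9% and 55.1% of Myc in WT and 35.7% and 63.1% in cKO, with overlapping groups. Mki67, the proliferation marker Ki-67 gene, had 3 lost regions, and H3K36me3 covered 24.8% and 40.7% in WT and 61.7% and 87.2% in cKO, higher in both cKO libraries. Ccnd1, which encodes a cyclin, had 2, and its H3K36me3 was 76.4% and 75.9% in WT and 81.4% and 84.0% in cKO, higher without overlap. E2f3, a cell cycle transcription factor gene, had 1 lost region, 2592 bp wide. Kept intergenic regions numbered 1 at Mki67, 2 at Ccnd1 and 0 at E2f3.

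Of 36 cytokine and chemokine genes, 8 (22.2%) were nearest to a lost region and 10 to a kept one. Igf1, a growth factor gene of macrophages, had 4 lost regions, 38.1 to 126 kb upstream. Il1rn, which encodes the interleukin-1 receptor antagonist, had 2, and H3K36me3 covered 20.3% and 18.3% of it in WT and 0% and 3.42% in cKO, without overlap. Cxcl1 and Cxcl12, both chemokine genes, had 2 each and no H3K27ac at the start site or H3K36me3 in the gene in any library. Kept intergenic regions numbered 5 at Igf1, 1 at Cxcl1 and 0 at Il1rn and Cxcl12.

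The interferon response list had the lowest share of the 6 lists, with 3 of 43 matched genes (6.98%) nearest to a lost region, against 7.35% of all protein-coding genes, and 6 nearest to a kept one. These were Irgm1, an interferon-induced GTPase gene, Ddx58, which encodes the RNA sensor RIG-I, and Ifit2, an interferon-induced antiviral gene, with 1 region each. At Ifit2 the order was opposite to that of the lost region. H3K27ac was called at its start site in the cKO libraries alone, and H3K36me3 covered 4.20% and 5.69% in WT and 19.02% and 23.8% in cKO. The lists were chosen with earlier results known, so their shares are a description.

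The study also provides lists of genes with lower and higher RNA in cKO BMDMs at day 7, from separate RNA libraries, used here for their symbols alone. They held 248 and 356 symbols, entries without a symbol being left out, of which 228 and 341 matched the annotation. Of 228 matched genes with lower RNA, 46 (20.2%) were nearest to a lost region and 16.7% to a kept intergenic one. Of 341 with higher RNA, 41 (12.02%) were nearest to a lost region and 21.7% to a kept one. Among all protein-coding genes these shares were 7.35% and 9.43%. Counted over regions, 65 lost regions (2.82%) were nearest to a gene with lower RNA, against 2.12% of kept and 1.43% of gained regions. As many lost regions, 65 (2.82%), were nearest to a gene with higher RNA, against 3.58% of kept and 7.65% of gained regions.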

How the data were processed

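CUT & RUN region lists from 10 libraries of BMDMs were analysed. The authors trimmed reads with cutadapt, aligned them to mm10 with Bowtie, and called regions with HOMER per library, against IgG libraries, with a peak size of 500 bp, a distance setting of 1000 bp and a Poisson p of 1e-03 per the file headers. The 5 IgG samples had no list of their own. The deposited lists hold positions, with a score column that the authors left constant, which was not used. They hold no signal per region, so presence and length were compared, and read-based differential binding was not possible.

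H3K27ac lists were merged where regions touched or overlapped. H3.3-HA and H3K36me3 overlap required 1 bp. Shares are given with Wilson 95% intervals, and genotypes were compared by two-sided exact permutation tests over libraries. Calls, covered lengths and motif searches were checked on simulated lists. Python 3.11.15, NumPy 2.4.6 and SciPy 1.17.1 were used. Depths are given in the report. Named regions and genes were the 12 widest lost regions, the 10 genes nearest to most, up to 4 genes per list by summed length, the 5 longest in both H3.3-HA libraries, the 5 widest of each H3K36me3 pattern, and those at the start site threshold. The 87 lost regions on chromosome 18 were counted but not named, and some other items that the rule names are not reported here. The regions, gene lists and named-gene rules were chosen with earlier results of these data known.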

Additional observations from a re-analysis of the deposited data

How the results depend on the processing

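The number of lost intergenic regions, 2302, lay between 1869 and 2098 when WT coverage of at least 50%, no cKO region within 1 kb, all annotated genes, a distance of 5 kb or merging across 1 kb was required. It was 1220 with H3K27ac lists of equal length and 1170 with regions of at least 1 kb. Leaving out 1 H3K27ac library gave 2697 to 5050 regions, namely 4320 without WT 1, 5050 without WT 2, 2697 without cKO 1 and 3388 without cKO 2. The H3.3-HA overlap, on average 52.6%, was 64.6% with equal lists, 75.1% with regions of at least 1 kb and 38.5% when at least 50% of a region had to be covered, and 38.4% to 58.6% with 1 library left out. The share with PU.1 letters, 10.9%, was 7.21% in 300 bp, 16.5% in 1000 bp, 47.6% with the shorter letters GGAAGT (43.3% of kept regions), and 8.40% to 11.0% with 1 library left out. The cKO minus WT differences in H3K36me3 stayed negative in all alternatives but one. Without H3K36me3 cKO 1 the overlap became 0.4996 points, and the nearest genes' body coverage 1.24 points. With 1 library left out, the ranges were −3.63 to 0.4996 points for the overlap, −103.6 to −0.917 kb for the length and −10.8 to 1.24 points for body coverage. No p was below 0.333.

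With the replicate number as a block, the differences remained −1.56 points (exact sign-flip p = 1), −52.3 kb (p = 0.5) and −4.76 points (p = 1), where 0.5 is the smallest possible p. Libraries of the same number did not deviate together, with correlations of −0.0392 for H3K36me3 over the lost regions and 0.0251 for H3K27ac over all merged regions, so the numbers were not taken to pair the samples. The lists give no depth per region, so a lost region may hold signal in cKO below the threshold of the caller.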
